A study of Mus musculus with 4 samples.

Results

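This section describes 35 genes of protein folding and degradation in the endoplasmic reticulum (ER), the compartment where secreted and membrane proteins are made. They were chosen by gene symbol, from a list of stress sensors, chaperones, disulfide enzymes, degradation factors and translocation channel subunits. A gene was measured where a probe set carried its symbol alone, and the probe set with the highest mean was taken where there were several. That gave 34 of the 35 genes, of 22180 genes compared in all; Pdia4 was not analysed here. The series measured total RNA on 4 Affymetrix arrays, all from N9, a mouse microglial cell line. Of these, 1 array came from cells given 10 µM nimodipine, 1 from cells given 20 µM nimodipine and 2 from cells given vehicle. Nimodipine is a dihydropyridine that blocks L-type calcium channels, and the series title asks what dihydropyridines do to murine microglia. All cultures were the same line, kept in serum-containing medium with antibiotics. The length of exposure is not given in the sources used here. The labels do not tie a vehicle array to a dose. They also do not state that the arrays stand for separate cultures, and every p-value below therefore rests on array-to-array spread that may be technical.

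New proteins enter the ER through the Sec61 channel and are folded there by chaperones, by lectins that read their sugars and by enzymes that form disulfide bonds. Proteins that fail to fold are unfolded, passed back to the cytosol and destroyed, which is called ER-associated degradation. When unfolded protein builds up, the sensors IRE1 (Ern1), ATF6 (Atf6) and PERK (Eif2ak3) start the unfolded protein response, in which ATF6 and the spliced form of XBP1 raise the genes of folding and degradation, while PERK slows translation and favours ATF4. Microglia secrete cytokines and complement proteins and display many membrane receptors, all of which pass through this compartment.

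All values are log2 expression as deposited, so a difference of 1 stands for a 2-fold change. Over all arrays and all probe sets, also those without a single gene symbol, the median value was 5.04. None of the 34 genes had a mean under it. The 22180 genes compared had a median mean level of 5.51, and 12764 of them averaged 5.04 or more. The 10 µM array stood apart from the others: its differences from the vehicle mean had a standard deviation of 0.341 over all genes, against 0.214 for the 20 µM array. The vehicle arrays differed from each other with a standard deviation of 0.227. Of 12 microglial markers, 10 averaged 5.04 or more, among them Csf1r, Cd68 and Itgam, while the homeostatic markers Tmem119 and P2ry12 lay under 5.04. At 10 µM 9 of the 12 were lower than the vehicle mean and 3 higher, with a median difference of -0.13 and the lowest for Itgam (-0.77), Ptprc (-0.43) and Csf1r (-0.28). At 20 µM 6 were lower and 6 higher (median 0.02). Against vehicle, limma called 0 of the 12 at 10 µM (2 at an unadjusted p under 0.05, against 16.9% of all genes). The summed linear level of the 12 markers, in which the brightest weigh most, was 26000 at 10 µM, 26470 at 20 µM, and 26090 and 26540 in the vehicle arrays. Measured markers of astrocytes, neurons, oligodendrocytes, fibroblasts and endothelium numbered 19, of which 9 averaged 5.04 or more. Their summed linear levels per cell type lay between 156.4 and 315.1 on the nimodipine arrays and between 126.6 and 313 on the vehicle arrays, and limma called 0 of the 19 at 10 µM (6 at an unadjusted p under 0.05, against 16.9% of all genes). The part of either set of markers in the results below was not tested. RNA came from whole cultures, so a change in every cell and a larger change in some cells cannot be told apart.

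Promoter windows of 30 of the 35 genes were matched by symbol in RefSeq (GRCm38.p6), each running from 250 bases before to 50 bases after the gene start. They include that of Pdia4, and the genes without one were Atf6, Hyou1, Derl1, Manf and Sec61a1. The ER stress response element, to which ATF6 and XBP1 are known to bind together with NF-Y, was searched on both strands as CCAAT, 9 bases of any kind and CCACG. Of the 30 genes, 9 held it (30.0%), against 37 of all 27025 genes with a window (0.137%). Its second form, ATTGG, 1 base and CCACG, was in 2 of the 30 genes (6.67%) and in 12 of all genes (0.0444%). The matches are printed below for the genes that held either form, and the other windows held neither. Capitals mark the fixed letters, and each is read 5′ to 3′ on the strand named.
Calr (chr8:84847075-84847093, plus strand): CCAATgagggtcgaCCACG
Canx (chr11:50325800-50325818, minus strand): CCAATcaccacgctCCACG
Creld2 (chr15:88819520-88819538, minus strand): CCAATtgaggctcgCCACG
Derl3 (chr10:75893242-75893260, minus strand): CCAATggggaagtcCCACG
Dnajc3 (chr14:118937827-118937845, plus strand): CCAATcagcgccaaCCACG
Hsp90b1 (chr10:86705638-86705656, minus strand): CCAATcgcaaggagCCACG
Hsp90b1 (chr10:86705533-86705551, plus strand): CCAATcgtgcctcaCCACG
Hspa5 (chr2:34772025-34772043, plus strand): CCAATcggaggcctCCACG
Pdia6 (chr12:17266491-17266509, plus strand): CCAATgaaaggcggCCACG
Syvn1 (chr19:6046532-6046550, plus strand): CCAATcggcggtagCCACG
Dnajb11 (chr16:22857852-22857862, plus strand): ATTGGcCCACG
Herpud1 (chr8:94386377-94386387, plus strand): ATTGGgCCACG
The second form is shown in the last pair of lines, and Hsp90b1 held the first form on both strands. A match describes the letters in the window and does not show binding. The genes were chosen for roles in folding, degradation and the unfolded protein response, which acts through this element. Their higher shares are therefore no independent evidence. Each match of either form holds a CCAAT box (ATTGG is CCAAT on the other strand), and CCAAT alone was in 23 of the 30 genes (76.7%) and in 41.1% of all genes.

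At 10 µM nimodipine Ern1, Hspa5 and Herpud1 rose, and the other measured genes did not pass the test. The same 3 were past 1 on the log2 scale against vehicle, all of them upwards, against 0.514% of all genes upwards and 1.57% in both directions. At 20 µM 0 of the 34 genes differed by that much, against 0.0857% of all genes. Each dose had 1 array, so the test of a dose against vehicle (limma, a fit of 3 groups with Benjamini-Hochberg adjustment over 22180 genes) borrows the spread of the vehicle pair for each dose, with 1 residual degree of freedom. That fit called 353 genes at 10 µM, which is 1.59% of all genes, and 113 of these were higher (0.509%). It called 3 of the 34 genes. At an unadjusted p under 0.05 there were 14 of the 34, against 16.9% of all genes. Taking both nimodipine arrays as 1 group against vehicle, limma called 0 of the 34 genes and 0% of all genes (smallest adjusted p = 0.792). The arrays of that group are different doses, so a difference between the doses counts as spread there. A change at 1 dose alone could hardly pass. At an unadjusted p under 0.05 that comparison had 2 of the 34 genes, Dnajc3 and Derl3, against 5.37% of all genes. With the 20 µM array left out, that comparison is the one of 10 µM alone, with 353 genes and 3 of the 34.

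The members leaned upwards at 10 µM. Of the 34 genes, 25 were higher than the vehicle mean at 10 µM and 23 at 20 µM, against 52.4% and 49.3% of all genes. The median difference was 0.22 at 10 µM and 0.06 at 20 µM, against 0.01 and 0.00 over all genes. The same genes differed by a median of 0.01 between vehicle 2 and vehicle 1. At 10 µM, 24 of the 34 genes exceeded both vehicle arrays and 7 were under both, against 39.1% and 35.4% of all genes. At 20 µM the counts were 19 and 6, against 34.5% and 35.1% of all genes. In 14 genes the vehicle arrays were both exceeded by both doses, and in 2 genes both doses were under them, against 19.2% and 18.2% of all genes. Both doses share the vehicle arrays, so the counts at the doses are not independent of each other.

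**Figure D1:**
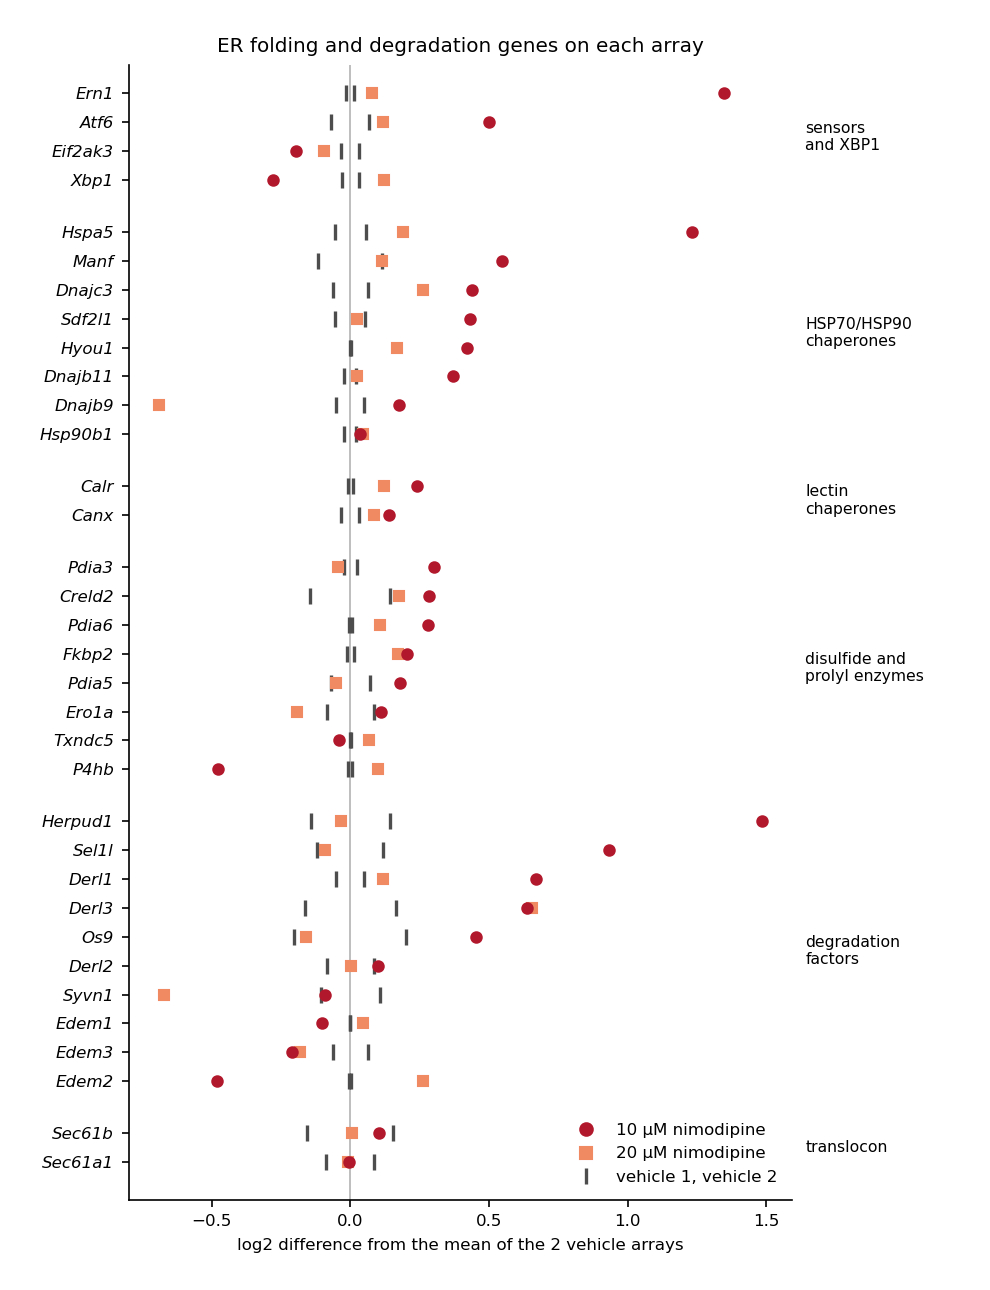
Log2 difference of each of the 34 genes from the mean of the vehicle arrays, by role; red circles are the 10 µM array, orange squares the 20 µM array and grey ticks the 2 vehicle arrays. Herpud1, Ern1 and Hspa5 lie past 1 at 10 µM, and none of the 34 does so at 20 µM.

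The 3 sensors differed in direction. Ern1, which encodes the sensor IRE1 that splices Xbp1 RNA, stood at 9.85 at 10 µM and 8.58 at 20 µM, against 8.48 and 8.51 in the vehicle arrays. The 10 µM value was 2.55-fold above the vehicle mean and far outside the gap between the vehicle arrays (difference 1.35 ± 0.14, limma SE, adjusted p = 0.0222). At 20 µM the difference was 0.08. Atf6, a membrane-bound transcription factor that is cut free under stress, stood at 10.67 at 10 µM and 10.29 at 20 µM, against 10.24 and 10.10. Both nimodipine values were higher than either vehicle value, but the difference at 10 µM (0.50) missed the threshold (limma adjusted p = 0.185). Eif2ak3, which encodes the kinase PERK, stood at 7.76 at 10 µM and 7.87 at 20 µM, against 7.99 and 7.93. Here both nimodipine arrays lay below both vehicle arrays, by 0.20 and 0.09 on average, and the limma adjusted p at 10 µM was 0.572. Xbp1, the transcription factor that acts downstream of IRE1, stood at 10.03 at 10 µM and 10.43 at 20 µM, against 10.34 and 10.28. It lay below both vehicle arrays at 10 µM and above both at 20 µM, with differences of -0.28 and 0.12 (limma adjusted p = 0.409 at 10 µM). Its probe set gives 1 value for the gene, so spliced and unspliced Xbp1 were not measured apart.

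The 8 chaperones of the HSP70 and HSP90 kind, with their cofactors, were all higher than the vehicle mean at 10 µM, with a median difference of 0.43, although Hsp90b1 (0.04) turned lower when the arrays were set to equal medians. Of the 8, Hspa5 alone passed the test. Hspa5, the ER chaperone BiP that also holds the sensors inactive, stood at 11.53 at 10 µM and 10.49 at 20 µM, against 10.25 and 10.36 in the vehicle arrays. It was 2.35-fold higher at 10 µM (difference 1.23 ± 0.15, limma SE, adjusted p = 0.0296) and 1.14-fold higher at 20 µM, where it did not pass (limma adjusted p = 0.830). Both doses exceeded both vehicle values. Its promoter window is shown because Hspa5 is the best known target of the pathway; capitals mark the element, which starts at position -65 from the gene start (RefSeq, GRCm38.p6, chr2:34771840-34772139, plus strand).
Hspa5: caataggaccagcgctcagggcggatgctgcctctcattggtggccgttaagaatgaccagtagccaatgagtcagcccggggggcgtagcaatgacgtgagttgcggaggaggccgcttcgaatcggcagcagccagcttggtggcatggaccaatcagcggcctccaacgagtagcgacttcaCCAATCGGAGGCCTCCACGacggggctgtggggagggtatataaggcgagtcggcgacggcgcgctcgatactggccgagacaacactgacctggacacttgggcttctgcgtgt

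Manf, a small secreted protein that binds BiP, stood at 7.63 at 10 µM and 7.20 at 20 µM, against 6.97 and 7.20. The 10 µM value was 0.55 above the vehicle mean, while the vehicle arrays differed by 0.23 and the 20 µM value lay within their range. Dnajc3, a J-domain partner of BiP, stood at 8.70 and 8.52 at the doses, low to high, against 8.19 and 8.32, so both doses exceeded both vehicle values. Its difference over both doses was 0.35 ± 0.14 (limma SE, 2 arrays per group, adjusted p = 0.792). Sdf2l1, which works with J-domain chaperones in folding, stood at 10.42 and 10.02, against 9.94 and 10.04. Only its 10 µM array lay outside the vehicle range. Hyou1, which exchanges nucleotides on BiP, and the J-domain protein Dnajb11 were higher by 0.42 and 0.37 at 10 µM and by 0.17 and 0.02 at 20 µM. Dnajb9, a J-domain protein that restrains IRE1, did not follow them and was picked out after its values were seen. It stood at 8.28 at 10 µM and 7.41 at 20 µM, against 8.05 and 8.15, and had the lowest difference of all 34 genes at 20 µM, -0.69 (limma adjusted p = 0.762). Hsp90b1, the ER form of HSP90, differed by 0.04 and 0.05.

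The lectin chaperones Calr and Canx, which hold glycoproteins while they fold, did not pass the test. Calr stood at 12.24 at 10 µM and 12.12 at 20 µM, against 12.01 and 11.99 in the vehicle arrays. Canx stood at 12.18 and 12.13, against 12.01 and 12.07. For each of them both doses lay above the vehicle range, with differences of 0.24 and 0.14 at 10 µM (limma adjusted p = 0.473 and 0.703).

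Of the 8 measured disulfide and prolyl enzymes, 6 were higher and 2 lower at 10 µM, against 52.4% of all genes higher. Their median difference was 0.19, and they did not pass the test. P4hb, the founding protein disulfide isomerase, was the lowest of the 8 in its difference at 10 µM, at 10.66 at 10 µM and 11.24 at 20 µM, against 11.13 and 11.14. It was 0.48 below the vehicle mean at 10 µM and 0.10 above it at 20 µM, beside a vehicle gap of 0.01 (limma adjusted p = 0.184 at 10 µM). Pdia3, the isomerase that partners the lectin chaperones, stood at 11.35 and 11.00, against 11.02 and 11.07. It was above both vehicle arrays at 10 µM and below both at 20 µM. Creld2, a secreted ER protein known to be induced by ER stress, stood at 9.12 and 9.01, against 8.69 and 8.98, and its difference of 0.28 at 10 µM was no larger than the gap of 0.29 between the vehicle arrays. Pdia6, another isomerase, stood at 11.38 and 11.21, against 11.10 and 11.11. Both doses lay above the vehicle range. Fkbp2, a prolyl isomerase, differed by 0.20 and 0.17 at the doses and Pdia5 by 0.18 and -0.05. Ero1a, the oxidase that recharges disulfide isomerases, differed by 0.11 and -0.19, and Txndc5, a thioredoxin-domain isomerase, by -0.04 and 0.07. The sign of Txndc5 at 10 µM turned under cyclic loess.

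The 10 degradation factors were divided in direction: 6 were higher and 4 lower at 10 µM, against 52.4% of all genes higher. Their differences ran from -0.48 to 1.48, and Herpud1 alone passed the test. Herpud1, a membrane protein of the ubiquitin ligase complex for ER degradation, stood at 10.63 at 10 µM and 9.12 at 20 µM, against 9.29 and 9.01 in the vehicle arrays. It was 2.80-fold higher at 10 µM (difference 1.48 ± 0.18, limma SE, adjusted p = 0.0280), and its 20 µM value lay between the vehicle values. Its promoter window is shown because it holds both the second form of the ER stress response element, at position -52 from the gene start, and TGATGCAA on the opposite strand (the capitals TTGCATCA). These letters match TGATGNAA, the letters used for the element of C/EBP and ATF4, which was in 2 of the 30 genes (6.67%) and in 4.51% of all genes (RefSeq, GRCm38.p6, chr8:94386179-94386478, plus strand).
Herpud1: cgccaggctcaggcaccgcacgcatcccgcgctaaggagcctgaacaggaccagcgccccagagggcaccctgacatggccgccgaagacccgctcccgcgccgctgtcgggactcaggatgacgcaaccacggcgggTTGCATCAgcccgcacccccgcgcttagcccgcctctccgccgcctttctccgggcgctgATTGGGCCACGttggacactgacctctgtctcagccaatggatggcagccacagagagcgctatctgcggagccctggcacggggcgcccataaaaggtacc

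Sel1l, the adaptor of that ligase complex, stood at 10.69 at 10 µM and 9.67 at 20 µM, against 9.88 and 9.64, so the 10 µM array alone lay outside the vehicle range. Its difference of 0.93 at 10 µM missed the threshold (limma adjusted p = 0.0662), and the call was made under 4 of the alternatives (adjusted p from 0.00934 to 0.0662 over all settings). Derl1, a derlin that helps move proteins out of the ER, stood at 10.82 and 10.27, against 10.10 and 10.20, with both doses above the vehicle range. Its difference of 0.67 at 10 µM had a limma adjusted p of 0.105, and 0.0152 to 0.105 over all settings. Derl3, another derlin, differed from the other leading genes in being as high at 20 µM as at 10 µM. It stood at 5.96 and 5.98, against 5.16 and 5.49, so both doses exceeded both vehicle values, by 0.64 and 0.66 on average. Its difference over both doses was 0.65 ± 0.16 (limma SE, 2 arrays per group), with an unadjusted p of 0.00585 and an adjusted p of 0.792. All 4 of its values were near the median of all values, where a fold can be too small.

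Edem2 and Syvn1 were picked out after their values were seen. Edem2, which starts the trimming of mannose that marks a glycoprotein for destruction, stood at 9.71 at 10 µM and 10.46 at 20 µM, against 10.20 and 10.19. It was thus below both vehicle arrays at the lower dose and above both at the higher one, with differences of -0.48 and 0.26 (limma adjusted p = 0.181 and 0.784). Its relatives Edem1 and Edem3 differed by -0.10 and -0.21 at 10 µM and by 0.05 and -0.18 at 20 µM. Syvn1, the ubiquitin ligase HRD1 itself, stood at 8.49 and 7.91, against 8.69 and 8.48. Only the 20 µM array lay outside the vehicle range, 0.67 below the vehicle mean (limma fit across all genes, adjusted p = 0.762). Os9, a lectin that hands glycoproteins to the ligase, differed by 0.45 and -0.16 at the doses, with a gap of 0.40 between the vehicle arrays, and Derl2 differed by 0.10 and 0.00.

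**Figure D2:**
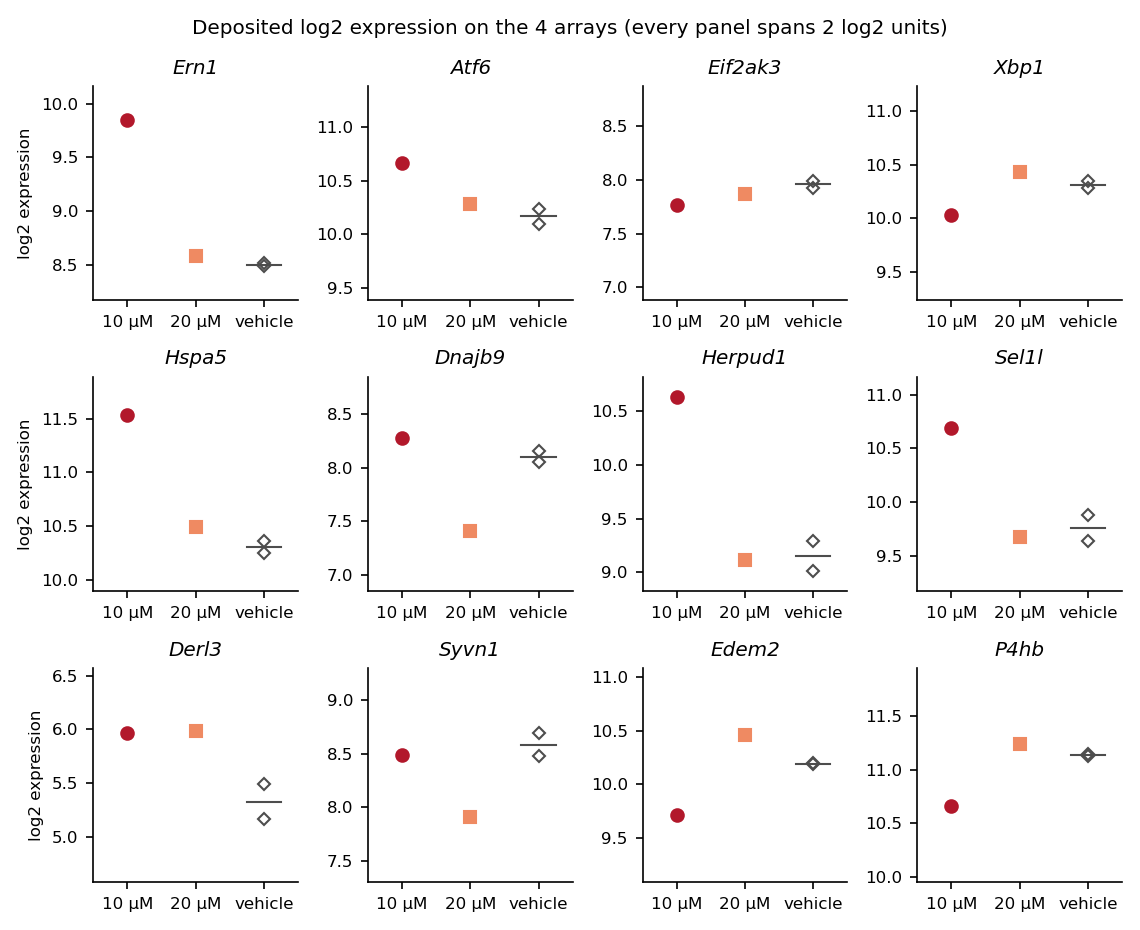
Deposited log2 expression of 12 genes on the 4 arrays, with the vehicle mean as a line; every panel spans 2 log2 units. Ern1, Atf6, Hspa5, Herpud1 and Sel1l stand highest at 10 µM, while P4hb, Edem2, Xbp1 and Eif2ak3 are lowest there. Derl3 is high at both doses. Dnajb9 is highest at 10 µM and lowest at 20 µM, and Syvn1 is lowest at 20 µM.

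The translocation channel showed no such differences. Sec61a1, its pore-forming subunit, stood at 10.81 at 10 µM and 10.80 at 20 µM, against 10.73 and 10.90 in the vehicle arrays. Sec61b, a small subunit, stood at 5.64 and 5.54, against 5.69 and 5.38. For both genes each nimodipine array lay within the vehicle range.

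Set side by side at 10 µM, the median differences were 0.15 for sensors and Xbp1, 0.43 for the HSP70 and HSP90 group, 0.19 for lectin chaperones, 0.19 for disulfide and prolyl enzymes, 0.28 for degradation factors and 0.05 for the translocon. At 20 µM they were 0.10, 0.08, 0.10, 0.08, -0.01 and 0.00 in the same order of roles. These medians are over 2 to 10 genes each, and no test was made between roles. The vehicle arrays differed by a median of 0.11 in the HSP70 and HSP90 group, and by -0.07 among degradation factors and in the translocon.

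**Figure D3:**
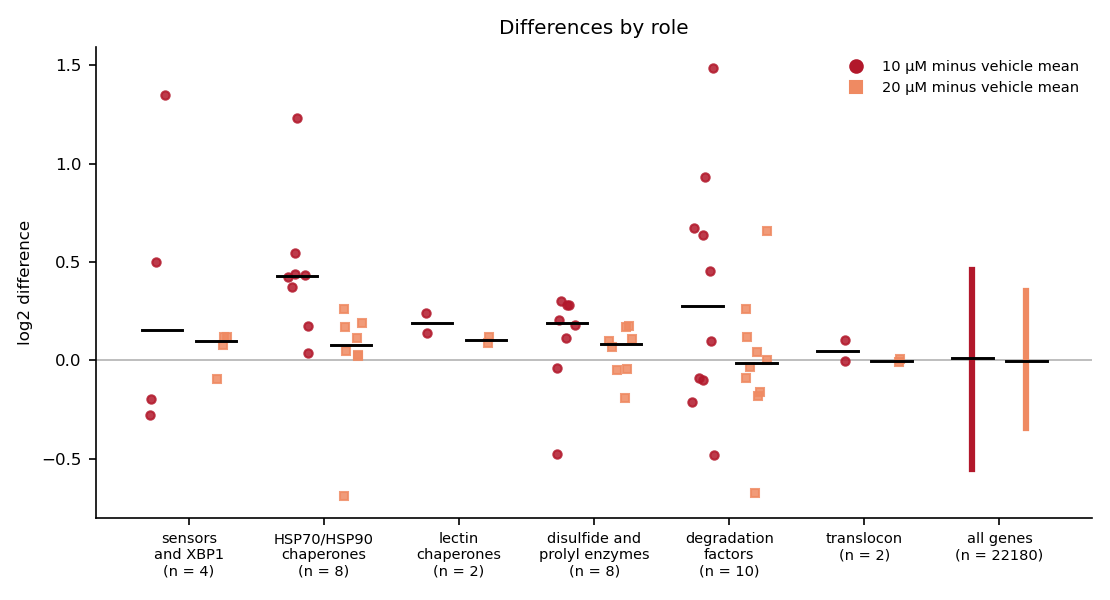
Log2 difference from the vehicle mean at 10 µM (red circles) and 20 µM (orange squares) by role, with medians as black lines; for all 22180 genes the bars run from percentile 5 to percentile 95. The HSP70 and HSP90 group lies above 0 for all 8 genes at 10 µM (Hsp90b1 turns lower with equal array medians), while sensors, disulfide enzymes and degradation factors lie on both sides.

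Between the doses, 20 µM against 10 µM, 25 of the 34 genes were lower at 20 µM, against 49.9% of all genes. The contrast in the same limma fit called 70 genes (0.316% of all genes) and 0 of the 34, of which 10 had an unadjusted p under 0.05, against 13.7% of all genes. The smallest adjusted p among the 34 was 0.0579, for Ern1, with a difference of -1.27. Herpud1 (-1.52) and Hspa5 (-1.04) followed with adjusted p values of 0.0633 and 0.0848. When dim probe sets were removed, which kept 12764 genes, this contrast called Ern1, Herpud1, Hspa5, Sel1l, Dnajb9 and Edem2. Edem2 was the one higher at 20 µM. Over all genes the contrast called 738 of the 12764 in that setting, so the 0.316% above is not the share to set beside these calls. At 20 µM against vehicle limma called 0 of the 34 genes and 0% of all genes. At an unadjusted p under 0.05 it had 3 of the 34, Dnajb9, Syvn1 and Derl3, against 6.39% of all genes.

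Beyond the 34 genes, 111 of 120 other genes of the same compartment and response were measured, in 6 lists. At 10 µM limma called 10 of them, 8 higher and 2 lower, against 1.59% of all genes called and 0.509% called higher. Of the 111, 75 were higher and 36 lower than the vehicle mean, against 52.4% of all genes higher, with a median difference of 0.11. The PERK arm with ATF4 and CHOP had the largest share: 7 of its 12 genes were called, 6 higher and 1 lower, with a median difference of 0.74 at 10 µM and 0.00 at 20 µM. Ddit3, which encodes the stress factor CHOP, stood at 10.64 at 10 µM and 7.41 at 20 µM, against 7.32 and 7.24 in the vehicle arrays (difference 3.36, limma adjusted p = 0.00286). Trib3, a pseudokinase induced by CHOP, rose by 3.25 with the same adjusted p. Asns, Atf4, Chac1 and Ppp1r15a rose by 1.51, 1.48, 1.01 and 0.98. Eif2ak2, the kinase PKR that like PERK phosphorylates eIF2α, fell by 0.95 (limma adjusted p = 0.0470). Eif2ak3 itself, as given above, did not pass the test. These genes were known from earlier results of the same arrays to stand high at 10 µM and are no independent evidence. The list is named for the PERK arm, but it also holds the other eIF2α kinases Eif2ak1, Eif2ak2 and Eif2ak4. Which kinase acted on the genes of the list was not tested.

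In the other lists 3 genes were called at 10 µM. Nfe2l1, a membrane-anchored transcription factor that raises proteasome genes, stood at 9.35 at 10 µM and 8.14 at 20 µM, against 8.02 and 7.97 (limma adjusted p = 0.0222). Erlin1, a membrane protein of ER degradation, stood at 9.19 and 7.99, against 7.98 and 7.86 (limma adjusted p = 0.0280). Tram2, a protein near the translocation channel, stood at 6.80 and 7.80, against 8.13 and 7.97 (limma adjusted p = 0.0313), and fell. The list medians at 10 µM were 0.02 for 14 genes of signalling, 0.09 for 35 of folding and glycan control, 0.16 for 26 of degradation and 0.16 for 17 of translocation and signal peptide removal. At 20 µM they lay between -0.04 and -0.01. Among the folding genes 0 of 35 passed (6 at an unadjusted limma p under 0.05, against 16.9% of all genes). At 10 µM 20 of the 35 were higher and 15 lower, against 52.4% of all genes higher. Ppib, a cyclophilin of the ER, was the highest, by 0.56 at 10 µM and 0.61 at 20 µM. The lowest at 10 µM was Fkbp14, with -0.89 there and 0.03 at 20 µM, beside a vehicle gap of 0.34. The 7 transcripts that IRE1 is known to cut in mouse cells had a median difference of 0.12, with 5 higher and 2 lower, and 0 passed (2 of the 7 at an unadjusted limma p under 0.05, against the same 16.9%). The best known of them, Bloc1s1, differed by 0.57 at 10 µM and -0.06 at 20 µM. The mean levels of the 7 had a median of 5.68, with Sparc lowest at 3.99, and at low levels a fold can be too small.

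**Figure D4:**
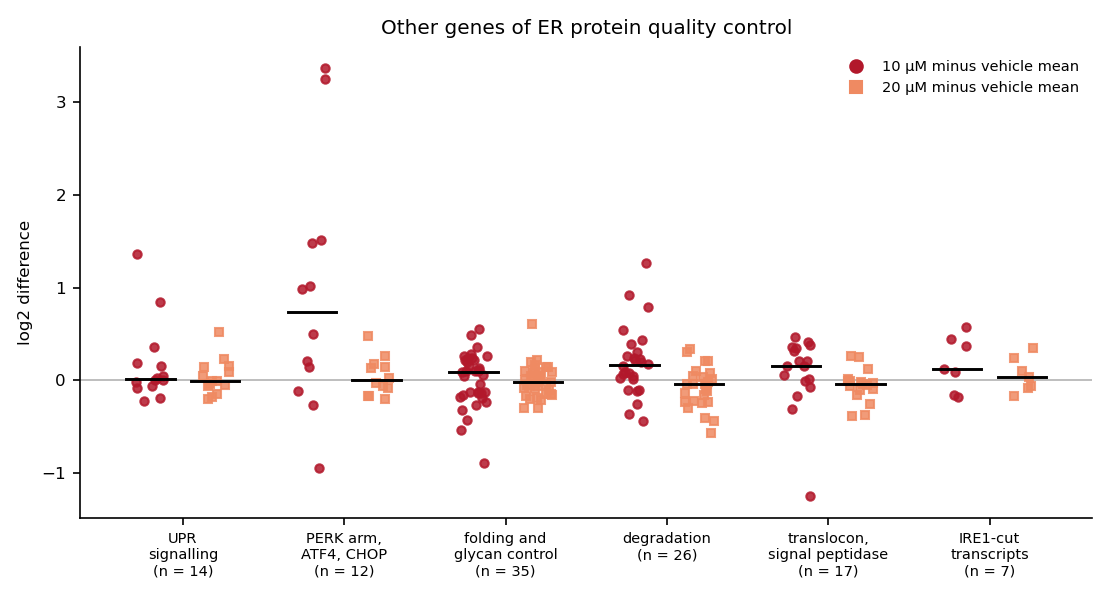
Log2 difference from the vehicle mean at 10 µM (red circles) and 20 µM (orange squares) for 111 other genes in 6 lists, with medians as black lines. The list of the PERK arm, ATF4 and CHOP has the highest median at 10 µM, 0.74, led by Ddit3 and Trib3 past 3.

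The promoter element was set beside the values as a description. Of the 11 genes with either form of the element, 10 were higher at 10 µM (9 with equal array medians, where Hsp90b1 turned), from -0.09 (Syvn1) to 1.48 (Herpud1), with a median of 0.28. Of the 18 measured genes whose window held neither form, 11 stood higher and 7 lower (median 0.11). Ern1 and Sel1l were in the second set. At 20 µM the medians were 0.11 and 0.01. Herpud1 and Hspa5 led the first set, while Hsp90b1, with the element on both strands, differed by 0.04. Of 28 other genes in the mouse table with the first form, 20 were measured, with 12 higher and 8 lower at 10 µM, a median difference of 0.02 and 0 past 1 on the log2 scale. The letters TGACGTGG, bound by XBP1 and ATF6, were in 1 of the 30 genes (3.33%), Txndc5, and in 0.714% of all genes.

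**Figure D5:**
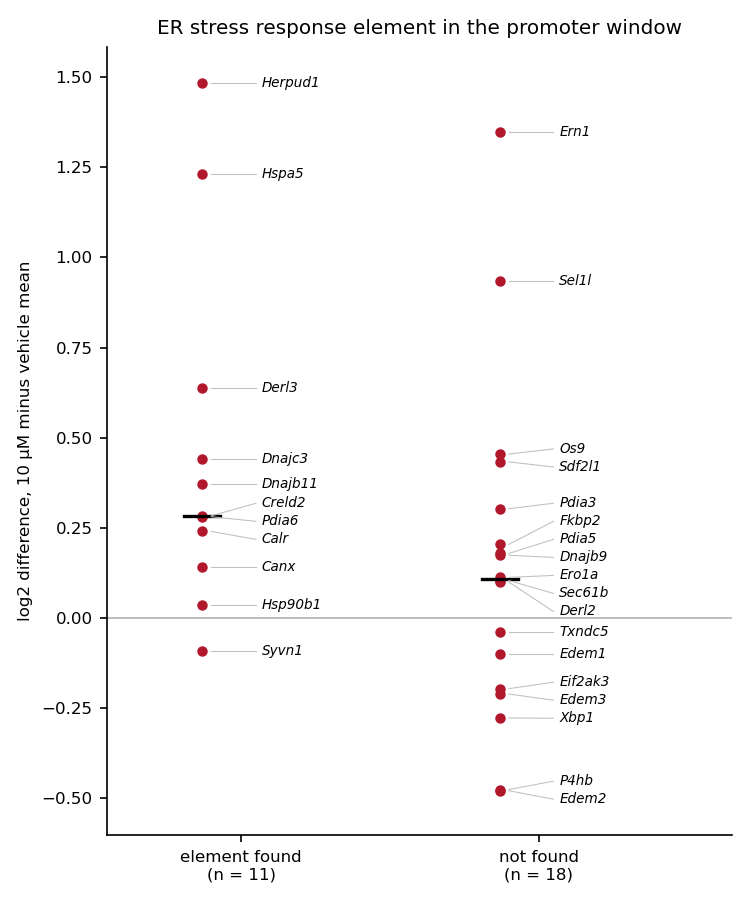
Log2 difference at 10 µM from the vehicle mean for the 11 genes whose promoter window held either form of the ER stress response element and the 18 that held neither, with medians as black lines. The genes with the element lie between -0.09 and 1.48, and those without it between -0.48 and 1.35.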

How the data were processed

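The authors deposited log2 expression values; the submitters' processing notes name RMA and Affymetrix Expression Console 1.2.1.20. RMA brings arrays to a common distribution, which hides a shift of most genes at once. The array medians lay between 5.02 and 5.06, and precision is limited by having 4 arrays. Of 41345 probe sets, 23521 carried 1 gene symbol in the array annotation, 1814 several and 16010 were not listed. All 176 measured genes of the lists had the same symbol in RefSeq (GRCm38.p6).

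Each dose was set against the mean of the vehicle arrays. limma 3.58.1 (R 4.3.3; lmFit and eBayes) compared both nimodipine arrays with both vehicle arrays, and each dose in a fit of 3 groups. P-values were adjusted by Benjamini-Hochberg over 22180 genes, and 0.05 was the threshold. The fits were checked on simulated data, in which every array was given a spread taken from the vehicle pair. That check cannot show whether a lone dose array varies like the vehicle pair. The genes and lists were chosen with earlier results of these data known. All 35 genes were named. Values on every array were given for the sensors and Xbp1, for up to 4 genes of each other role with the largest difference at 10 µM, and for genes past 1 or past the threshold. Of other lists, called genes and up to 3 each way were eligible. The alternatives left out dim probe sets, averaged the probe sets of a gene, set equal medians, used cyclic loess, added an eBayes trend or left out 1 array. Protein sequences were not used here.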

Additional observations from a re-analysis of the deposited data

Results flagged for a closer look

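The difference between the doses themselves passed the test for 3 genes of the PERK arm and for 0 of the 34 folding and degradation genes (10 at an unadjusted limma p under 0.05). Over all genes the shares were 0.316% and 13.7%. On the log2 scale, 20 µM minus 10 µM was -1.46 for Atf4, -3.23 for Ddit3 and -3.42 for Trib3 (limma contrast of the doses, adjusted p = 0.0465, 0.00701 and 0.00701). Each dose had 1 array, so neither dose has a spread of its own: the test takes that of the vehicle pair for both. These genes were already known from these arrays to stand high at 10 µM, so the p-values are no independent evidence. The PERK arm names the list that holds them, and the kinase acting on them was not tested.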

How the results depend on the processing

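The counts of calls moved most. At 10 µM against vehicle, 353 genes were called with all settings as reported, 1282 with dim probe sets left out, 1175 with an eBayes trend, 654 with equal array medians and 547 with cyclic loess; all 34 genes stayed in when dim probe sets were left out. Of the 34 genes, 3 were called as reported, 5 with dim probe sets left out (Sel1l and Derl1 added) and 8 with a trend (also Atf6, Edem2 and P4hb, the last 2 of them lower). Over all genes the matching counts were 353 of 22180, 1282 of the 12764 kept and 1175 of 22180. Ern1, Hspa5 and Herpud1 were called under every alternative in which this contrast could be fitted. For 20 µM against 10 µM, 70 genes as reported became 738, 731, 272 and 242 in the same order of settings, and 0 of the 34 became 6, 7, 2 and 2. Leaving out dim probe sets kept 12764 of the 22180 genes, so the counts in that setting are over fewer genes. The cause of these moves was not tested. For both nimodipine arrays against vehicle, leaving out 1 array gave between 0 and 353 genes and between 0 and 3 of the 34, the higher counts without the 20 µM array, when the comparison is that of 10 µM alone. Without a vehicle array the fit of 3 groups has no residual degrees of freedom, so its tests were not run. The median difference of the 34 genes lay between 0.19 and 0.24 at 10 µM and between 0.03 and 0.08 at 20 µM over all alternatives. Directions turned for 5 different genes at 10 µM, the largest being Sec61b (0.10 as reported). At 20 µM they turned for up to 6 genes under 1 alternative, the largest being Os9 (-0.16), Herpud1 and Sel1l among them. No paired analysis was possible because each dose had 1 array and no label ties it to a vehicle array.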

Other observations

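Of the 34 genes, 4 had more than 1 probe set. For Ero1a the second probe set differed by 0.36 at 10 µM and -0.12 at 20 µM, beside 0.11 and -0.19 for the one used. For Edem1 the second probe set, with a mean of 4.81, differed by 0.02 and -0.08, beside -0.10 and 0.05. The second probe sets of Derl2 and Sec61b differed by -0.02 and 0.13 at 10 µM. Ngly1 and Ufd1, given next, were picked out after their values at 20 µM were seen. At 20 µM the lowest genes of the degradation list outside the 34 were Ngly1, the enzyme that strips sugars from proteins bound for the proteasome, with -0.57, and Ufd1, a cofactor of the p97 ATPase, with -0.43; their limma adjusted p values were 0.762 and 0.762.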
